A study of Homo sapiens with 6 samples.

Results

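The interleukin-1 (IL-1) family was examined through 10 genes: the ligands IL1A, IL1B, IL37, IL18 and IL33, the receptor antagonist IL1RN, and the receptors and co-receptor IL1R1, IL1R2, IL1RAP and IL1RL1. Every probe set annotated to exactly 1 of these symbols was taken, which gave 23 of 54613 probe sets and 10 of the 19775 genes with a probe set of their own. The genes were selected on their difference between the lines in these same arrays, so their values are a description and carry no test. The study profiled total RNA from the lung adenocarcinoma line PC9, which is sensitive to the EGFR inhibitor gefitinib, and from PC9/gef, its gefitinib-resistant derivative. PC9/gef was obtained from PC9 by continuous exposure to rising gefitinib concentrations. Both lines were grown in RPMI-1640 medium with fetal bovine serum, and the labels do not say whether gefitinib was present at harvest. Each line has 3 arrays labeled as biological replicates, 1 resistant derivative represents resistance, and nothing states that the replicates came from separate cultures, so p-values measure only the spread between these samples, which may be technical.

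IL-1 alpha and IL-1 beta bind the receptor encoded by IL1R1, which pairs with the accessory protein encoded by IL1RAP and signals through MyD88 and IRAK kinases to NF-kappaB and MAP kinases. IL1RN encodes a secreted antagonist that occupies the receptor without signaling, IL1R2 encodes a decoy receptor that lacks the signaling domain, and IL-37 is a ligand known for dampening inflammation. IL-1 beta and IL-18 are made as precursors that are cut by caspase-1, whereas IL-1 alpha is active without that step. In epithelial cells IL-1 is known for inducing chemokines and other cytokines.

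The background level was set at a log2 value of 2.61, below which lay 95% of 107 probe sets for olfactory receptors by their mean over the arrays. A probe set whose mean was at or below it is called background. Of the 23 probe sets, 7 were background in both lines, with means from 2.17 to 2.52, and the other 16 covered 9 of the 10 genes. Of these 16, the PC9/gef arrays were all above the PC9 arrays for 7, all below for 7, and overlapped for 2. Over all 26163 probe sets above background in a line, 25.3% were higher without overlap and 35.2% lower without overlap. A difference over 2-fold was seen for 5 of the 16 upward and 1 downward, against 1.98% and 1.75% of all such probe sets. The median absolute log2 difference was 0.593 over the 16 and 0.159 over all probe sets above background. The members were selected on this contrast, so nothing is read from these counts.

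**Figure D1:**
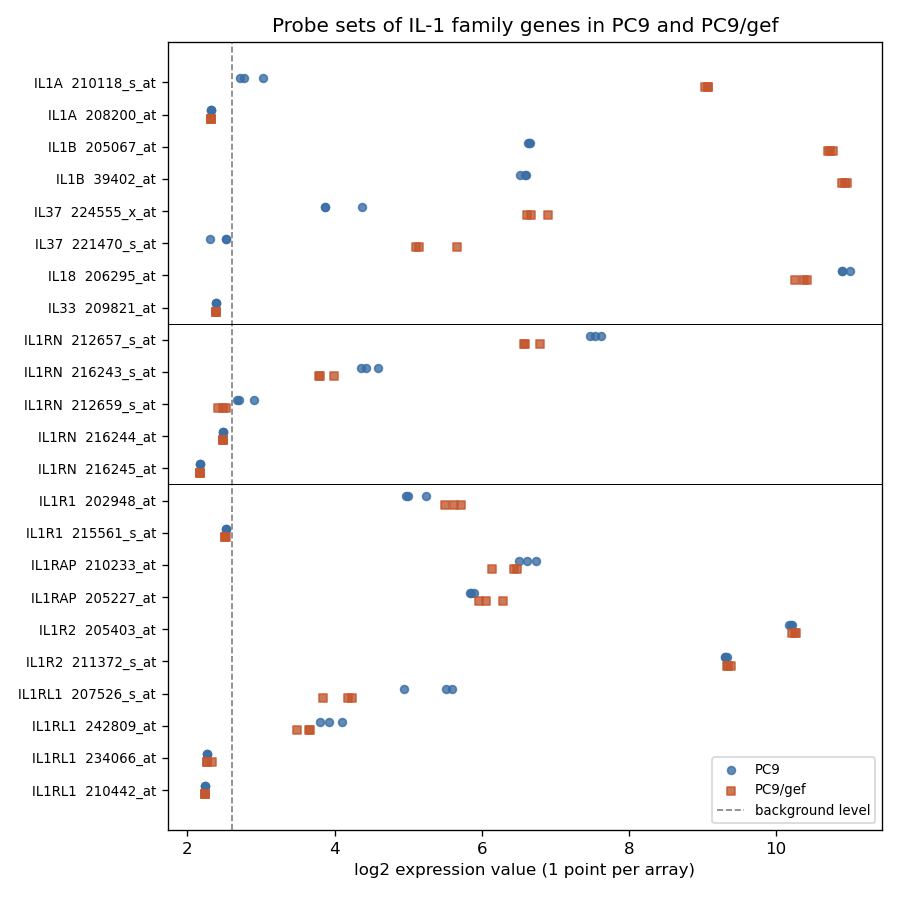
Log2 expression value of each of the 23 probe sets of the IL-1 family genes, 1 point per array (circles, 3 PC9 arrays; squares, 3 PC9/gef arrays), with ligands at the top, the antagonist in the middle and receptors at the bottom. The dashed line is the background level of 2.61. The PC9/gef arrays lay to the right of the PC9 arrays for the detected IL1A, IL1B and IL37 probe sets and to the left for IL18, and the IL1R2 arrays overlapped.

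IL1A, the gene for IL-1 alpha, was close to background in PC9 and far above it in PC9/gef. Probe set 210118_s_at read 2.72, 2.77 and 3.02 in the PC9 arrays and 9.08, 9.04 and 9.08 in the PC9/gef arrays on the log2 scale. The lines were far apart, and the highest PC9 array was 6.01 below the lowest PC9/gef array. The means were 2.84 ± 0.17 in PC9 and 9.07 ± 0.026 in PC9/gef (SD, n = 3 each), a log2 difference of 6.23 (SE 0.092) or 75.1-fold, place 2 among all 54613 probe sets ordered from the largest rise. The second IL1A probe set, 208200_at, read 2.32 in every array and was background in both lines. The 2 probe sets of IL1A therefore disagree, and the difference rests on 1 of them. In bulk RNA, as here and for every gene that follows, fewer cells of a kind and less RNA per cell cannot be told apart.

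IL1B, the gene for IL-1 beta, was detected in PC9 and was higher in PC9/gef by both of its probe sets. Probe set 205067_at read 6.66, 6.64 and 6.63 in PC9 and 10.77, 10.73 and 10.71 in PC9/gef. Probe set 39402_at read 6.52, 6.60 and 6.59 in PC9 and 10.94, 10.96 and 10.89 in PC9/gef. The arrays of a line were close together for both probe sets, and the lines were separated by over 4.05. The log2 differences were 4.10 (SE 0.020) and 4.36 (SE 0.031), or 17.1-fold and 20.6-fold, places 7 and 6 from the largest rise. The probe sets differed from each other by 0.268 in this difference. The study also measured IL1A and IL1B by RT-qPCR in both lines. It named IL1A, but not IL1B, among the genes up-regulated in PC9/gef by that method. The study measured IL1A, IL1B, IL6 and CXCL8 in another pair of lines too, HCC827 and its resistant derivative HCC827/gef. Of these genes it named only CXCL8 as raised in HCC827/gef.

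IL37 was also higher in PC9/gef by both probe sets. Probe set 224555_x_at read 3.87, 3.87 and 4.37 in PC9 and 6.90, 6.61 and 6.67 in PC9/gef, a log2 difference of 2.69 (SE 0.18) or 6.46-fold. Probe set 221470_s_at was background in PC9, at 2.52, 2.31 and 2.53, and read 5.15, 5.66 and 5.10 in PC9/gef. Its PC9 level is only a bound, which makes PC9/gef at least 6.48-fold higher. The suffixes _x_at and _s_at mark probe sets that can bind more than 1 transcript, and both IL37 probe sets and the detected IL1A probe set carry one.

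The remaining ligands did not follow IL1A, IL1B and IL37. IL18, the gene for a caspase-1-processed cytokine that acts through its own receptor, read 10.90, 10.90 and 11.00 in PC9 and 10.38, 10.25 and 10.42 in PC9/gef. All PC9/gef arrays were below all PC9 arrays, with a log2 difference of -0.58 (SE 0.058), so that PC9/gef stood at 66.8% of PC9. IL33, the gene for the nuclear alarmin that binds the receptor encoded by IL1RL1, read 2.39 in all 6 arrays and was background in both lines.

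**Figure D2:**
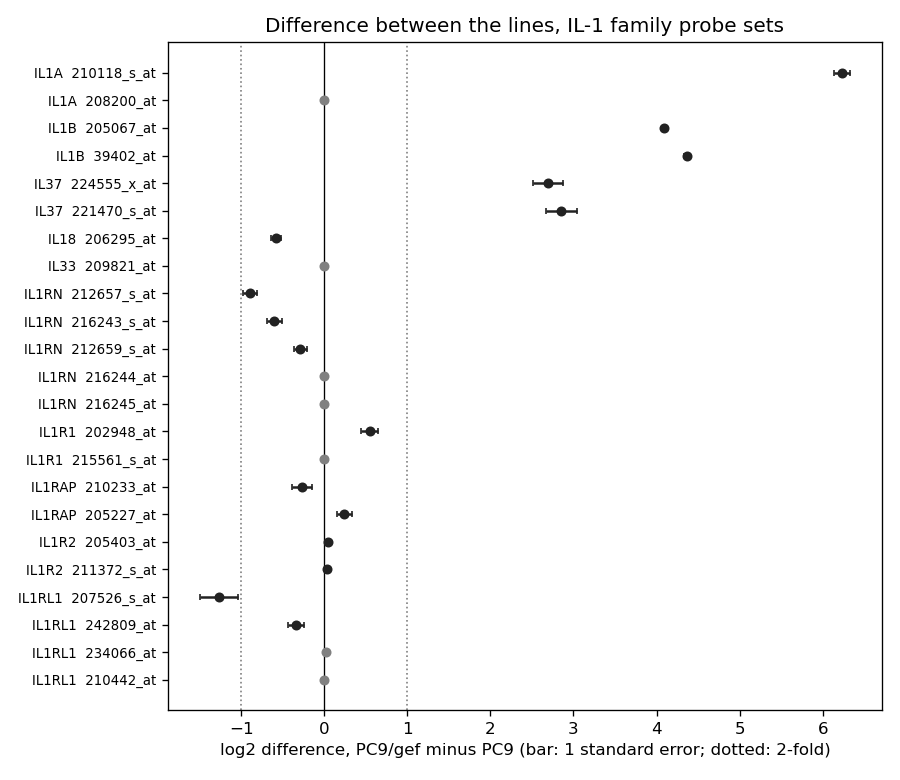
Log2 difference, PC9/gef minus PC9, for each probe set of the IL-1 family genes, with bars of 1 standard error from limma (n = 3 arrays per line) and dotted lines at 2-fold. Gray points are background in both lines. The probe sets past 2-fold are 5 of IL1A, IL1B and IL37 on the right and 1 of IL1RL1 on the left.

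Because IL1A, IL1B and IL37 were the ligands with higher values and lie next to each other on chromosome 2, the 250 bases before the outermost RefSeq start of each gene are shown (GRCh38.p14, 5′ to 3′ on the strand of the gene). Capitals mark the AP-1 motif TGANTCA.
IL1A, minus strand, chr2:112784494-112784743: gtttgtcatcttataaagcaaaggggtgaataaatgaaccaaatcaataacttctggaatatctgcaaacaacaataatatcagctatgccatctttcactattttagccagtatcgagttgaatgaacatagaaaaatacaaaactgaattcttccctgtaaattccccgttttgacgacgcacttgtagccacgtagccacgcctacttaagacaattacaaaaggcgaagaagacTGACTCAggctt
IL1B, minus strand, chr2:112836780-112837029: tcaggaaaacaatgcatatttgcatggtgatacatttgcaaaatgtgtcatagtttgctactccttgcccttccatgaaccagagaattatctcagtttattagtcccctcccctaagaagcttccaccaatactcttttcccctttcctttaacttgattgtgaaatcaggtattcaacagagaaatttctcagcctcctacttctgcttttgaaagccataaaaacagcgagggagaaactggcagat
IL37, plus strand, chr2:112910915-112911164: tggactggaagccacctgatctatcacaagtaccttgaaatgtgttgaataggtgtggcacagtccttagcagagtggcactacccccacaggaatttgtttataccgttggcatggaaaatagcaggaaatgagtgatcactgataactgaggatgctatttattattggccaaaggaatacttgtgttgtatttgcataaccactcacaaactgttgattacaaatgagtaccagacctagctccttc
The IL1A window held 1 match, which ended 6 bases before the start, and the windows of IL1B and IL37 held none. RefSeq windows were found for 9 of the 10 genes, all but IL18, and gave 19 windows, some of which overlap. On either strand the AP-1 motif was in 4 of these windows, from IL1A, IL1RN and IL1RL1, and in 6.57% of all 35116 windows of the same length. The NF-kappaB motif, which no AP-1 match overlapped, was in 1 window, from IL1R2, and in 9.96% of all windows. A match is a description of the letters and not a site.

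IL1RN, which encodes the natural inhibitor of both IL-1 alpha and IL-1 beta, was lower in PC9/gef by each of its 3 detected probe sets. Probe set 212657_s_at read 7.54, 7.62 and 7.47 in PC9 and 6.58, 6.80 and 6.58 in PC9/gef, without overlap. Its log2 difference was -0.89 (SE 0.081), or 1.86-fold lower. Probe set 216243_s_at read 4.43, 4.59 and 4.36 in PC9 and 3.98, 3.79 and 3.80 in PC9/gef, 1.52-fold lower. Probe set 212659_s_at was background in PC9/gef and at least 1.11-fold lower there. The other probe sets, 216244_at and 216245_at, were background in both lines, although the arrays of 216244_at were apart by 0.0020. Set within each array against the brightest IL1RN probe set, the log2 difference to IL1A shifted by 7.12 (SE 0.158) from PC9 to PC9/gef and that to IL1B by 5.25 (SE 0.0753). The smallest shift between any PC9 and any PC9/gef array was 6.68 for IL1A and 5.05 for IL1B. These shifts only add up the ligand and IL1RN differences of members selected on this contrast. They would be large without any change of IL1RN, so they are no separate sign of opposite directions.

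The receptor probe sets all differed less than the detected probe sets of IL1A, IL1B and IL37. IL1R1, the signaling receptor, read 5.00, 5.24 and 4.97 in PC9 and 5.50, 5.72 and 5.63 in PC9/gef by 202948_at. The PC9/gef arrays were all higher, by a log2 difference of 0.55 (SE 0.10) or 1.46-fold, and the second probe set 215561_s_at was background in both lines. IL1RAP, the shared accessory chain, gave differences of opposite sign. Probe set 210233_at read 6.62, 6.74 and 6.51 in PC9 and 6.49, 6.15 and 6.45 in PC9/gef, a log2 difference of -0.26 (SE 0.12). Probe set 205227_at read 5.89, 5.84 and 5.86 in PC9 and 6.06, 5.96 and 6.29 in PC9/gef, a log2 difference of 0.24 (SE 0.095). The lines were separated by only 0.027 and 0.070 in these probe sets, so no direction is given for IL1RAP.

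IL1R2, the decoy receptor, was well detected and nearly level between the lines. Probe set 205403_at read 10.21, 10.17 and 10.22 in PC9 and 10.22, 10.26 and 10.27 in PC9/gef, with a log2 difference of 0.051 (SE 0.021). Probe set 211372_s_at read 9.31, 9.33 and 9.31 in PC9 and 9.33, 9.38 and 9.35 in PC9/gef, with a log2 difference of 0.036 (SE 0.017). The arrays of the lines overlapped in both probe sets.

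IL1RL1, which encodes the IL-33 receptor ST2 in membrane and soluble forms, was the member with lower values past 2-fold in PC9/gef. Probe set 207526_s_at read 4.94, 5.60 and 5.51 in PC9 and 4.19, 4.23 and 3.85 in PC9/gef. All PC9/gef arrays were lower, with a log2 difference of -1.26 (SE 0.23) or 2.40-fold lower, and the PC9 arrays had the largest SD of any member, 0.36. Probe set 242809_at read 4.10, 3.80 and 3.92 in PC9 and 3.65, 3.66 and 3.49 in PC9/gef, a log2 difference of -0.34 (SE 0.099). The probe sets 234066_at and 210442_at were background in both lines. The files do not tie a probe set to the membrane or the soluble form, so the forms are not separated here.

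The list of other IL-1 family genes held 12 genes, which were not among those selected and were tested with limma. Of these, 9 were background in both lines, among them the IL-36 ligands IL36A, IL36B and IL36G, their antagonist IL36RN and their receptor IL1RL2. The other 3 did not pass at a Benjamini-Hochberg adjusted p under 0.05, and 1 had an unadjusted p under 0.05 by limma. IL18R1, the IL-18 receptor chain, had a log2 mean of 3.72 in PC9 and 4.02 in PC9/gef, a difference of 0.30 (SE 0.10, limma adjusted p = 0.0901). SIGIRR, an inhibitory receptor of the family, differed by -0.061 (limma adjusted p = 0.297), and its 2 probe sets gave -0.061 and 0.15. Over all 12185 genes above background in a line, 23.4% passed as higher and 21.8% as lower.

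The genes from IL1A to IL1RN, which include IL37 and the IL-36 genes but neither IL18 nor IL33, form a cluster on chromosome 2, and the 10 nearest genes with a probe set on each side were read in chromosomal order to see how far higher values extended. Of these 20 genes, 5 rose, 2 fell, 8 did not pass and 5 were background. The 5 and 2 are 33.3% and 13.3% of the 15 above background, beside 23.4% and 21.8% of all genes. NT5DC4, which lies 2 genes before IL1A in this order, rose from a log2 mean of 5.04 ± 0.29 to 7.15 ± 0.19 (SD, n = 3 each), by 2.11 (SE 0.19) or 4.30-fold (limma adjusted p = 0.00239), with its 3 probe sets ranging from 0.20 to 2.40. CKAP2L, between NT5DC4 and IL1A, differed by 0.26 and did not pass (limma adjusted p = 0.126). On the other side of IL37, the genes IL36G, IL36A, IL36B and IL36RN were background in both lines, and IL1F10 differed by -0.027. The values past 2-fold in this stretch were those of NT5DC4, IL1A, IL1B and IL37, and CKAP2L within it was not among them.

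Farther out, TTL, which encodes tubulin tyrosine ligase, rose by 0.93 (SE 0.084, limma adjusted p = 0.00228). This rise rests on a probe set with the suffix _s_at, and the probe set read without it differed by -0.00098. Of the 4 TTL probe sets 2 were above background, and a difference that small is of the size seen in background probe sets. PAX8, a transcription factor gene beyond IL1RN, fell by 0.40 (SE 0.079, limma adjusted p = 0.0243) and its antisense transcript PAX8-AS1 rose by 0.39 (SE 0.036, limma adjusted p = 0.0023). The fall of PAX8 did not pass when any array but the second PC9/gef array was left out, and PAX8-AS1 turned to -0.24 as a mean over its probe sets, which ranged from -1.07 to 0.39. Without a PC9 array 1 or 2 or a PC9/gef array 1 or 3, 4 genes of the 20 passed in place of 7.

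Beside the receptor cluster, also on chromosome 2, 2 of the 20 neighboring genes rose, 2 fell, 5 did not pass and 11 were background. Of the 9 above background, 22.2% rose and 22.2% fell, close to the 23.4% and 21.8% of all genes. The CCR4-NOT complex gene CNOT11 fell by 0.21 (SE 0.020, limma adjusted p = 0.00299) and the ubiquitin ligase gene RNF149 fell by 0.10 (SE 0.024, limma adjusted p = 0.0371). The kinase gene MAP4K4 rose by 0.19 (SE 0.042, limma adjusted p = 0.0328). The ribosomal protein gene RPL31 rose by 0.049 (SE 0.0060, limma adjusted p = 0.00549), with its 3 probe sets ranging from 0.049 to 0.73. None of these 4 genes reached 2-fold, and 2 passed with PC9 array 1, PC9 array 2 or PC9/gef array 3 left out. The call of RNF149 was lost when any array but the third PC9 array was left out, and that of MAP4K4 when any array but the first PC9/gef array was left out. Within the cluster, IL1R2 and IL1R1 are adjacent, and IL1RL1 lies beyond the background gene IL1RL2.

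**Figure D3:**
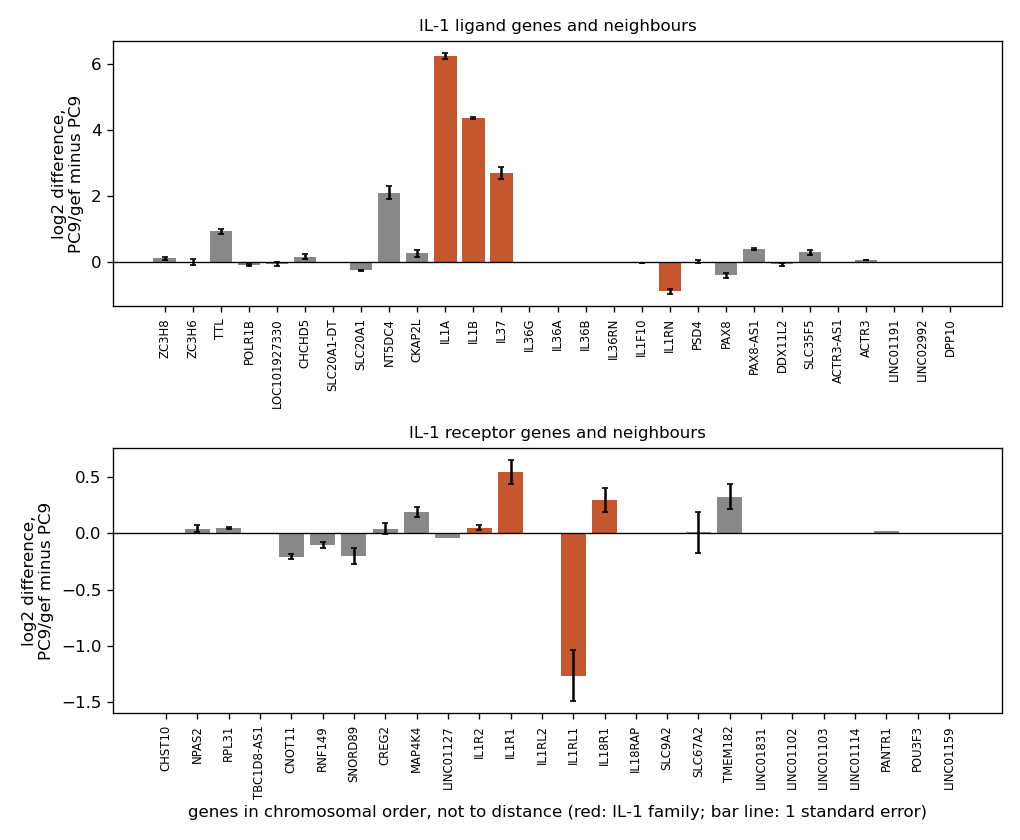
Log2 difference, PC9/gef minus PC9, of the IL-1 family genes (red) and of the 10 genes with a probe set on each side (gray), in chromosomal order but not to distance, each by its brightest probe set. Bars on the columns are 1 standard error (n = 3 arrays per line), genes without a visible column were close to 0 or background in both lines, and the panels have different vertical scales. The columns over 2-fold in the upper panel are NT5DC4, IL1A, IL1B and IL37.

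Of 25 genes that process IL-1 precursors or release the cytokines, 4 rose, 3 fell, 7 did not pass and 11 were background in both lines. The called genes are 28.6% and 21.4% of the 14 above background, close to the 23.4% and 21.8% of all genes, so the counts show nothing particular to this list. The median log2 difference of the 14 above background was -0.058, and 4 genes passed in place of 7 without probe sets of the suffixes _x_at and _s_at. CASP1, which encodes the IL-1 beta converting enzyme, and the inflammasome sensor genes NLRP1, NLRP3, NLRC4 and AIM2 were all background. GSDME, which encodes a pore-forming gasdermin that is cut by caspase-3, rose from a log2 mean of 6.82 to 8.78, by 1.96 (SE 0.062) or 3.89-fold (limma adjusted p = 0.000164), and was the gene of this list past 2-fold. PYCARD, the inflammasome adaptor ASC, rose by 0.81 (SE 0.047, limma adjusted p = 0.000676). GSDME and PYCARD each have 1 probe set, with the suffix _s_at, so neither has a value without those suffixes. S100A13, a protein known to take part in IL-1 alpha release, rose by 0.78 (SE 0.022, limma adjusted p = 0.000133). CAST, which encodes the calpain inhibitor calpastatin, fell by 0.32 (SE 0.0055, limma adjusted p = 5.45e-05), while CAPN2, a calpain subunit, fell by 0.19 (limma adjusted p = 0.000809).

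Of 23 signaling genes downstream of the IL-1 receptor with a probe set of their own, 4 rose, 5 fell, 12 did not pass and 2 were background, and the median log2 difference of the 21 above background was -0.041, against -0.009 over all genes. The called genes are 19.0% and 23.8% of those 21, close to the 23.4% and 21.8% of all genes, so these counts too show nothing particular to the list. MAP2K6, a kinase that activates p38, fell by 1.33 (SE 0.12, limma adjusted p = 0.00242) or 2.51-fold. That value comes from a probe set with the suffix _s_at, and its other probe set was background. TAB3, an adaptor of the TAK1 kinase, rose by 0.86 (SE 0.013, limma adjusted p = 4.64e-05). IRAK2, a receptor-proximal kinase that IL-1 also induces, fell by 0.46 (SE 0.037, limma adjusted p = 0.00173). RELA, the NF-kappaB p65 subunit, rose by 0.37 (SE 0.052, limma adjusted p = 0.0091), which did not pass as a mean over its 2 probe sets (0.22, limma adjusted p = 0.122). The adaptor MYD88 fell by 0.15 (limma adjusted p = 0.0268). In this list 5 genes passed in place of 9 without PC9 array 2, and also without probe sets of the suffixes _x_at and _s_at.

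Genes known to be induced by IL-1 in epithelial and other cells moved in both directions. Of 32 genes with a probe set of their own, 10 rose, 7 fell, 3 did not pass and 12 were background, with 7 past 2-fold upward and 1 downward. IRAK2 is in this list and in the signaling list, and its fall is counted in both. The called genes are 50% and 35% of the 20 above background, beside 23.4% and 21.8% of all genes, of which 305 and 265 of 12185 were past 2-fold. The median log2 difference of the 20 above background was 0.41, against -0.009 over all 12185 genes above background. Without probe sets of the suffixes _x_at and _s_at, 9 genes of this list passed in place of 17. This list shares chemokine and cytokine genes that the study drew attention to in these same arrays, so it is not independent evidence of a direction. IL11, a cytokine of the IL-6 family, rose from 6.92 to 9.40, by 2.49 (SE 0.051, limma adjusted p = 7.79e-05), though its 2 probe sets gave 0.42 and 2.49. The neutrophil chemokines CXCL6 and CXCL8 rose by 1.92 (SE 0.084, limma adjusted p = 0.00034) and 1.76 (SE 0.067, limma adjusted p = 0.000253).

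The chemokine genes CXCL1 and CXCL2 rose by 1.65 (limma adjusted p = 0.00562) and 1.44 (limma adjusted p = 0.000449), the cytokine gene IL6 by 1.39 (limma adjusted p = 0.00578) and PTGS2, which encodes cyclooxygenase-2, by 1.09 (limma adjusted p = 0.0124). The feedback regulators TNFAIP3 and NFKBIZ rose by 0.61 and 0.46, whereas NFKBIA, the NF-kappaB inhibitor, fell by 0.40 (limma adjusted p = 0.0041). ICAM1, an adhesion molecule for leukocytes, fell from 7.43 to 5.69, by 1.74 (SE 0.13, limma adjusted p = 0.00131), with 3 probe sets from -2.15 to -0.11. PTGES, the prostaglandin E synthase, and LCN2, the siderophore-binding lipocalin, fell by 0.73 and 0.66. The chemokine genes CCL2 and CCL20, the adhesion genes VCAM1 and SELE and the matrix metalloproteinase genes MMP1, MMP3 and MMP13 were background in both lines.

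**Figure D4:**
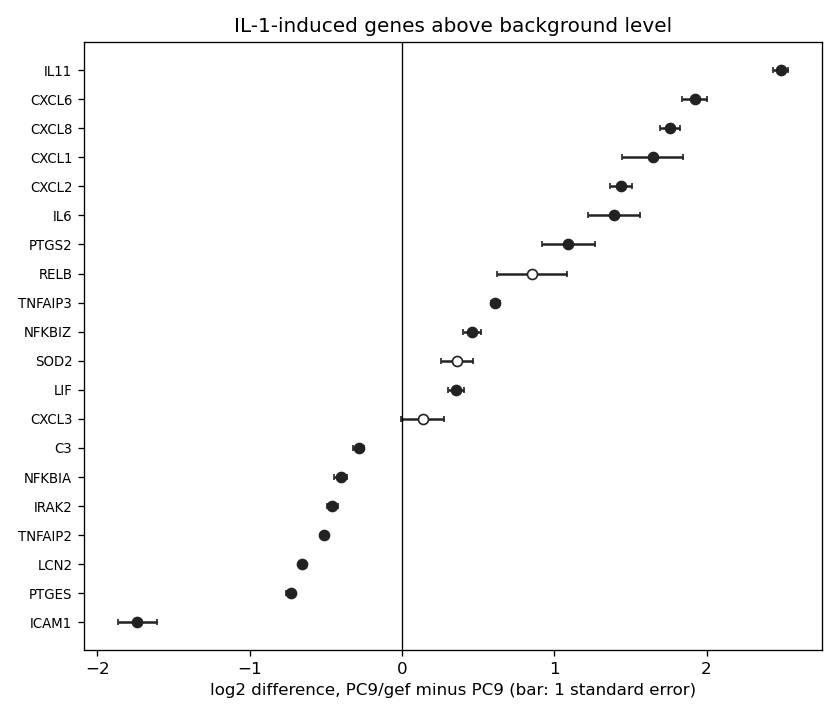
Log2 difference, PC9/gef minus PC9, of the 20 IL-1-induced genes above background in a line, with bars of 1 standard error from limma (n = 3 arrays per line). Filled points passed at an adjusted p under 0.05 over all genes and open points did not: 10 filled points lie to the right of 0 and 7 to the left, from IL11 at 2.49 to ICAM1 at -1.74.

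The genes whose values over the 6 arrays were most like those of IL1A and IL1B were found by the Euclidean distance between log2 values, each less its own PC9 mean, over 12184 genes. For IL1A these were C12orf75 at a distance of 1.87, STC2 at 3.10 and CTAG2 at 3.12. For IL1B they were CTAG2 at 0.165, STC2 at 0.401 and CREB5 at 0.737. The log2 differences were 7.30 for C12orf75, 4.45 for STC2, which encodes a secreted glycoprotein hormone, 4.43 for CTAG2, a cancer-testis antigen gene, and 3.96 for CREB5, a transcription factor gene. With only 2 lines the distance mostly measures the size of 1 difference.

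Leukocytes are a known source of IL-1, and markers of other cells were read beside these results. The leukocyte markers PTPRC, CD14, FCER1G, TYROBP, CD3E and CD79A, 6 of the 9 with a probe set of their own, were background in both lines. LYZ fell by 1.09 (limma adjusted p = 0.00103), ITGAM rose by 1.16 (limma adjusted p = 0.043) and CSF1R did not pass. The summed level of the list, on a linear scale, was 469.13 to 520.65 in PC9 and 274.46 to 277.26 in PC9/gef. Of the 7 fibroblast markers 5 were background and THY1 did not pass. COL1A1 rose by 0.52 (limma adjusted p = 0.038), with its 5 probe sets ranging from -0.29 to 0.52. The fibroblast sum was 254.65 to 322.65 in PC9 and 365.24 to 396.1 in PC9/gef. Of the 5 endothelial markers VWF and CDH5 were background, CLDN5 and ERG did not pass and PECAM1 fell by 2.40 (limma adjusted p = 0.000146). The endothelial sum was 495.05 to 509.24 in PC9 and 106.08 to 122.41 in PC9/gef. Each of these sums mostly follows its brightest gene and is not a separate result. These genes are LYZ, COL1A1 and PECAM1, at log2 means of 8.77, 7.94 and 8.90 in PC9. The part of the fibroblast and endothelial markers in the results was not tested. All 6 epithelial markers were above background. KRT7 and CDH1 rose by 0.29 and 0.19 (limma adjusted p = 0.00111 and 0.00578). KRT8 and KRT18 fell by 0.33 and 0.10 (limma adjusted p = 0.000276 and 0.00251). EPCAM, at 14.46 and 14.45, and KRT19 did not pass. The lung adenocarcinoma lineage markers NKX2-1, NAPSA and SFTA3 were background in both lines and SFTPB was at 4.31 and 4.33.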

How the data were processed

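Total RNA from 3 PC9 and 3 PC9/gef samples was hybridized to Affymetrix U133 Plus 2.0 arrays, 1 per sample. The deposited values are on a log2 scale, from 1.65 to 15.72, normalized by the authors. The submitters' processing notes name RMA and the supplementary methods GC-RMA in GeneSpring GX, and which was used was not settled. Arrays have no read depth, and their number limits precision. Of 54675 probe sets, 62 Affymetrix controls were left out. The platform annotation gave 41091 of the others 1 gene symbol, 1801 several and 11721 none, and genes were named only from the first kind. The difference between the lines was fitted over all probe sets with limma 3.58.1 (lmFit, eBayes) in R 4.3.3, and p-values were adjusted by Benjamini-Hochberg over probe sets. The same was done over genes, each read from the probe set with the highest mean over 6 arrays. The fit was tested on simulated data. Over the 25798 probe sets with a mean above background, arrays correlated at 0.998 to 0.999 within a line and 0.988 between lines.

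The members and lists were chosen with earlier results of these data known, and the lists were written from general knowledge or taken from RefSeq gene order. Genes named from a list are the 4 largest changes past an adjusted p of 0.05 and above background. Other list genes given with values (CAPN2, MYD88, IL18R1, SIGIRR, IL1F10, CKAP2L and the induced genes besides IL11, CXCL6, CXCL8 and ICAM1) were chosen after their values were seen. Not analysed here, for want of a probe set of their own, were IRAK4, UBE2V1, MAP2K3, MAP2K7 and MAPK14 in the signaling list, CSF2, SAA1, SAA2, BIRC3 and ZC3H12A in the induced list, and CD68. Alternatives changed the normalization (quantile or median centring), the variance model, the background filter, the choice of probe set and the arrays used. Another added the replicate number as a block. Promoter windows are from RefSeq (GRCh38.p14), and the build behind the array annotation was not needed.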

Additional observations from a re-analysis of the deposited data

How the results depend on the processing

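All probe set differences of the IL-1 family moved by less than the spread between replicates under every alternative tried, 283 values in all. This was largely fixed in advance and is no measure of robustness. The variance models, the replicate block and the filters cannot change a difference of means. Quantile normalization and median centring of these already normalized values left the differences almost unchanged. Leaving out 1 of 3 arrays moves a mean by less than the SD of its line. The 6 probe sets past 2-fold became 2 without those of the suffixes _x_at and _s_at, both of IL1B. The count of all probe sets passing, background ones included, was 9070, with 4158 higher and 4912 lower. It became 14689 with trend and robust variance, with 4829 higher and 9860 lower. It was 5425 without those suffixes and 5749 to 12211 with 1 array left out. Without those suffixes the processing list gave 4 genes in place of 7, the signaling list 5 in place of 9 and the induced list 9 in place of 17. By 2-fold alone with no test the lists gave 1 processing, 1 signaling, 8 induced, 1 ligand-neighbor and 0 receptor-neighbor genes. Restricting the fit to probe sets above background gave 1 of the other IL-1 family genes in place of 0. Leaving out 1 array gave 0 to 1 of these genes (1 without PC9/gef replicate 3), 5 to 9 signaling genes, 4 to 6 ligand neighbors and 2 to 3 receptor neighbors. Values of reversed sign were TTL at -0.00098 without those suffixes and PAX8-AS1 at -0.24 as a mean over probe sets. The TTL value is of the size seen in background probe sets and is not read as a fall. The cause was not tested. Of 275 values of named list genes under the alternatives, 251 kept direction and call, and 22 lost the call, including RPL31, PAX8, RNF149, MAP2K6, MAP4K4 and RELA. This tally too was partly fixed in advance, since the normalizations hardly moved the values. GSDME, PYCARD, RELA, CXCL8 and ICAM1 had no value without those suffixes, and their absence there is not counted as a lost call.

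Replicate numbers did not pair the samples: deviations from the line means correlated at -0.026, 0.015 and 0.048 between samples of the same number. With the replicate number as a block, 4123 probe sets passed in place of 9070 and 13 induced genes in place of 17.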
